A study of Mus musculus with 12 samples.

Results

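Purine, pyrimidine and folate synthesis is the set of enzymes that turn activated ribose into nucleotides. It was represented by 32 mouse genes, chosen by their function and matched to the deposited tables by Ensembl identifier. Of these, 31 were among the 13178 genes of the AAV table and all 32 were among the 21650 genes of the ribose table. A mean of 1 FPKM (read fragments per kilobase of a transcript, relative to the library's size) was reached by 31 in either table, and these were tested. Shmt1, the cytosolic serine hydroxymethyltransferase, was the exception: it was not analysed in the AAV experiment, and it was listed at 0, 0.0686 and 0.114 FPKM in the Vehicle libraries and at 0.217, 0 and 1.90 FPKM in the Ribose libraries.

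All 4 groups were C57BL/6J mice, 8 weeks of age, with a spinal cord injury 72 h before collection of dorsal root ganglion neurons that feed the sciatic nerve (lumbar levels 4 to 6), and each group held 3 libraries of polyadenylated RNA. The AAV experiment used adeno-associated virus, given through the sciatic nerve for 4 weeks, that carried transketolase (AAV-TKT) or, as its control, green fluorescent protein (AAV-GFP). In the ribose experiment mice received Vehicle or 10% ribose. Injury was shared by treated and control groups, and uninjured mice were not analysed here. The promoter that drives the viral transgene is not given in the sources used here, and nothing in them says whether the 3 libraries of a group came from separate animals. The p-values would otherwise cover only the spread of these samples, which may be technical.

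Nucleotides are built on ribose 5-phosphate, a product of the pentose phosphate pathway to which transketolase belongs. The purine ring is assembled on activated ribose step by step up to inosine monophosphate, the pyrimidine ring is closed first and then joined to the ribose, and salvage enzymes rebuild nucleotides from free bases. Folate enzymes supply one-carbon units for the purine ring and for thymidylate, ribonucleotide reductase makes the deoxy forms needed for DNA, and kinases charge monophosphates to triphosphates. Neurons no longer divide, and in them nucleotides serve mainly RNA synthesis, signalling and repair of nuclear and mitochondrial DNA.

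The labels name the tissue as neurons, and 13 of 13 pan-neuronal markers were measured in both tables, with summed levels from 7820 to 10389 FPKM over the AAV libraries and from 8231 to 9666 FPKM over the ribose libraries. Glial and blood markers were measured as well. Satellite glia markers summed to 1036 to 1692 FPKM in the AAV table and to 637.4 to 2027 FPKM in the ribose table. In bulk RNA, fewer cells of a type and less RNA per cell cannot be told apart. The totals per library ran from 413635 to 456084 FPKM in the AAV table and from 510551 to 551370 in the ribose table. The tables hold FPKM without read counts. Relative depth could be recovered from the steps of low values in the ribose table only, where the Vehicle libraries stood at 0.993, 1.25 and 1.34 and the Ribose libraries at 0.768, 0.896 and 0.878. Tkt, the gene that AAV-TKT carries, was at 106.5, 101.7 and 98.1 FPKM in AAV-GFP and at 222.6, 259.1 and 261.9 FPKM in AAV-TKT, so the groups did not overlap.

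Sequences before the transcription start are shown for the 5 genes whose libraries were separated between the groups of an experiment and whose promoter window holds a known motif: Rrm2 and Tyms, lower in AAV-TKT, Dtymk, lower in Ribose, Nme1, higher in AAV-TKT and lower in Ribose, and Mthfd1, slightly lower in AAV-TKT and higher in Ribose. These genes were picked after their values were seen. Each run is the stretch of the RefSeq window before the start that no untranslated region of GENCODE M21 covers, on GRCm38.p6, written 5′ to 3′ on the gene's strand. The run of Nme1 lies inside the gene, before the second of its RefSeq starts (93968025); the stretch before the first start (93968272) is untranslated region in other transcripts and is not shown. Capitals mark a match, on either strand, to CACGTG (the E-box bound by MYC and USF proteins) or to CCAAT (the box bound by NF-Y, which reads ATTGG on the other strand).
Rrm2, chr12:24708004-24708240, plus strand: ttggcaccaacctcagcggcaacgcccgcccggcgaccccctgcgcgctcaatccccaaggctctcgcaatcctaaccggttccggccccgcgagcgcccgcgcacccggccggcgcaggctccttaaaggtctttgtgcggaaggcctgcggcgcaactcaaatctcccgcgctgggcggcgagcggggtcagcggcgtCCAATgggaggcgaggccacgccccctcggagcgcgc
Tyms, chr5:30073626-30073875, minus strand: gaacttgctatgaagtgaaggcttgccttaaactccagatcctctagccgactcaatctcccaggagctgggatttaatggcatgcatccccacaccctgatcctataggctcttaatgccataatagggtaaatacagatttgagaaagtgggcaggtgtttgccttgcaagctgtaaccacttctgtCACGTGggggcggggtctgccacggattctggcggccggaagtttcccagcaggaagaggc
Dtymk, chr1:93801935-93802184, minus strand: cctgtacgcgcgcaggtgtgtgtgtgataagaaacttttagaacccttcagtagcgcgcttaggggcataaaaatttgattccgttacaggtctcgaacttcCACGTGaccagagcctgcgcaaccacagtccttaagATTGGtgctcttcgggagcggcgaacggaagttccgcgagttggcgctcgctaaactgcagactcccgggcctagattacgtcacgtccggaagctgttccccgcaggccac
Nme1, chr11:93968026-93968220, minus strand: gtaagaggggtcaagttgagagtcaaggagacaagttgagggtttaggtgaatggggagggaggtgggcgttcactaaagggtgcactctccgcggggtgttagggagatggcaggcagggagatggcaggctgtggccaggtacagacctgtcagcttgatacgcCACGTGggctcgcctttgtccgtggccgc
Mthfd1, chr12:76254982-76255231, plus strand: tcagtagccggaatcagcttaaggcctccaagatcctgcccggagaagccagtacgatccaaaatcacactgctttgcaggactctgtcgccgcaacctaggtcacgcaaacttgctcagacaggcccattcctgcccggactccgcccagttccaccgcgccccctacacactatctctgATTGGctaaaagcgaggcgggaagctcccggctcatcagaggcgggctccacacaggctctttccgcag

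Over the whole RefSeq table, 29 of the 32 genes had 39 windows, from 250 bases before the start to 50 after it. Pfas, Dhodh and Rrm2b had none. CACGTG was in 7 of the 39 windows (17.9%, against 7.15% of all 32851 windows), those of Atic, Dtymk, Impdh2, Nme1, Paics and Tyms. CCAAT was in 12 windows (30.8% against 37.4%). The E2F motif, searched as TTTCCCGC, TTTCGCGC, TTTGCCGC and TTTGGCGC on both strands, was in 1 window, that of Ppat (2.56% against 2.26%), and TGATGNAAT, an element bound by ATF4, was in 0 (against 0.965%). No motif contains another. A match is a description of the letters in the window and not a bound site.

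Levels ran from the 6.53rd percentile of the genes tested (Tyms in Vehicle) to the 96.4th (Hprt in AAV-GFP). Hprt, the salvage enzyme that rebuilds purine nucleotides from hypoxanthine and guanine, was the most abundant, at 131.4 ± 12.1 FPKM in AAV-GFP and 136.9 ± 18.0 FPKM in Vehicle (SD, n = 3). Impdh1, which commits inosine monophosphate to guanine nucleotides, came next at 87.9 ± 4.85 and 101.2 ± 6.05 FPKM, followed by Nme1, a nucleoside diphosphate kinase, at 65.2 ± 8.86 and 86.3 ± 5.09 FPKM. At the other end stood Rrm2 and Tyms, which act in DNA precursor synthesis. Rrm2, the small subunit of ribonucleotide reductase of dividing cells, was at 1.84 ± 0.410 FPKM in AAV-GFP and 1.57 ± 0.216 FPKM in Vehicle (SD, n = 3), and Tyms, thymidylate synthase, at 1.62 ± 0.579 and 1.24 ± 0.392 FPKM. Rrm2b, the small subunit used outside S phase, was at 19.6 ± 2.97 and 18.7 ± 1.77 FPKM in the same groups. The order of the control levels was nearly the same in both tables (Spearman rho = 0.988 over 31 genes, as a description). These genes share a tissue and a method, and the tables were normalized separately, so their levels were not compared further.

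**Figure D1:**
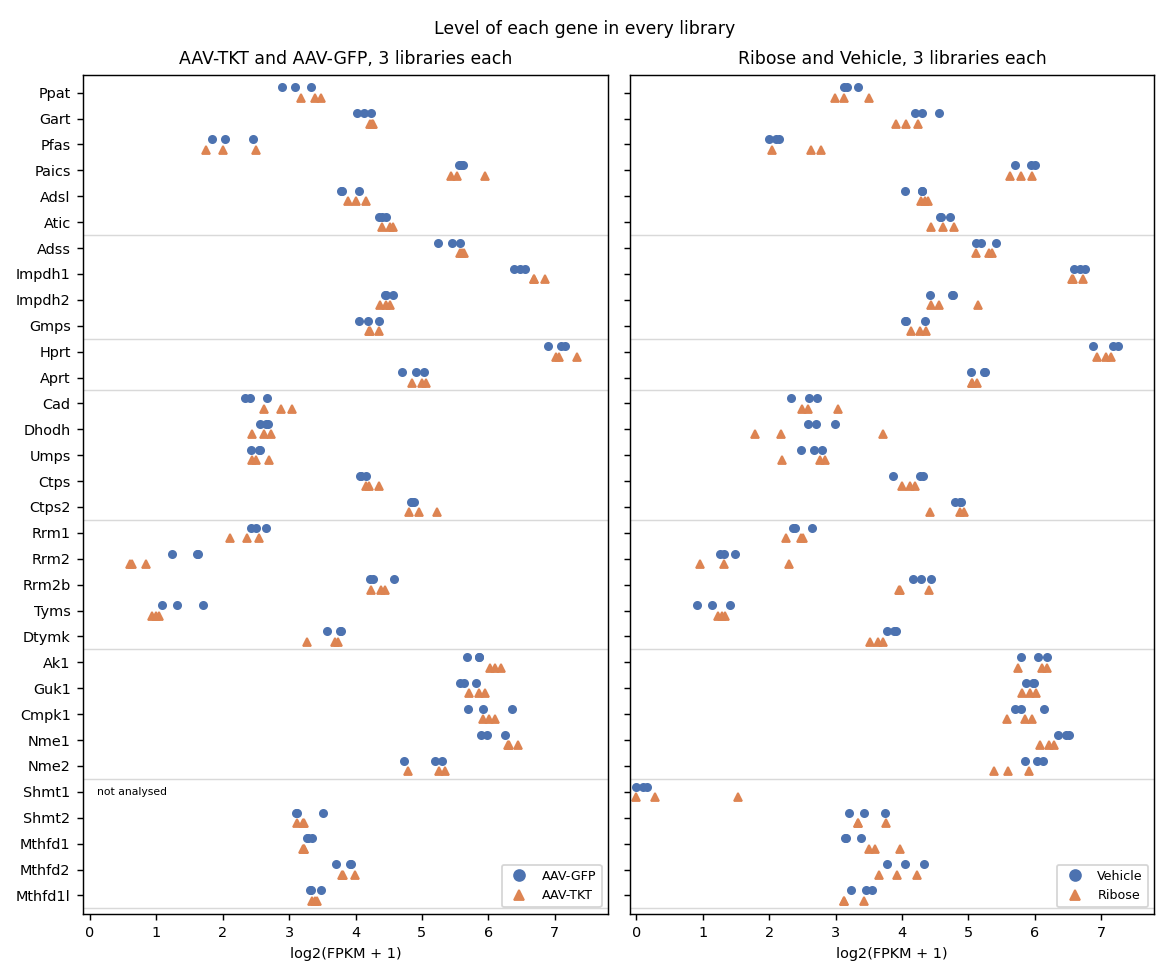
Level of each of the 32 genes in every library, as log2(FPKM + 1), with AAV-GFP and AAV-TKT on the left and Vehicle and Ribose on the right, 3 libraries each. Grey lines separate the steps of the pathway. Hprt is at the right end, Rrm2 and Tyms are at the left end, and for most genes the points of the groups overlap.

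AAV-TKT was compared with AAV-GFP to ask whether the users of ribose 5-phosphate differ where transketolase is raised. None of the 31 genes passed the test, limma on log2(FPKM + 1) with Benjamini-Hochberg adjustment over all 13178 genes and a threshold of 0.05. Over all genes the test called 1 higher and 1 lower (0.00759% in each direction), of which the higher one was Tkt. At an unadjusted p under 0.05, 4 of the 31 were higher (12.9%, against 6.23% of all genes), namely Impdh1, Cad, Ak1 and Nme1, and 1 was lower (3.23% against 4.36%), Rrm2. Libraries of the groups did not overlap in 8 genes (25.8%, against 18.5% of all genes): AAV-TKT was above AAV-GFP in 5 (16.1% against 11.3%) and below it in 3 (9.68% against 7.20%). The log2 change was positive in 21 of 31 genes (67.7% against 53.7%), with a median of 0.056 against 0.014 for all genes. Scaling moved these genes together with all others. With totals made equal between libraries 14 of the 31 were positive and 36.7% of all genes, with medians of -0.012 and -0.048. With totals equal after leaving out the most abundant RNA 16 were positive and 40.9% of all genes. Of the 5 genes under an unadjusted p of 0.05, Impdh1, Ak1 and Rrm2 stayed under it in every alternative that tested them. Nme1 did not in 4 of 16 and Cad in 8 of 16, both of these among them with weights per library and without AAV-GFP replicate 2 or AAV-TKT replicate 1. Dropping the filter, counted among these alternatives, repeats the main fit, since every gene of this table had a mean of at least 1 FPKM. Rrm2 and Tyms, both among the genes separated lower, reached that mean through the AAV-GFP libraries, so a lower value in AAV-TKT was favoured. No alternative undoes this, and raising the minimum to 5 FPKM leaves both untested.

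Of the 6 genes that form inosine monophosphate, 5 had a positive change in AAV-TKT (83.3%, against 53.7% of all genes) and none was separated. Ppat, the amidotransferase that commits activated ribose to purine synthesis, was at 7.54, 9.02 and 6.40 FPKM in AAV-GFP and at 9.45, 10.2 and 8.09 FPKM in AAV-TKT. The groups overlapped, and the log2 change was 0.25 (SE 0.133, limma adjusted p = 0.520). Gart, which carries 3 activities of the ring assembly, Paics, Adsl and Atic, which act after it, had log2 changes of 0.12, 0.05, 0.15 and 0.09, and Pfas, the amidine-forming step, had -0.03. The sign of Paics was negative under 3 of 4 other scalings and that of Pfas positive under 1. Ppat and Paics lie head to head on chromosome 5 of GRCm38 (GENCODE M21): Ppat spans 76913249 to 76951578 on the minus strand and Paics 76951307 to 76967509 on the plus strand, with 272 bases in common. Paics stood at 47.1 ± 0.992 FPKM in AAV-GFP and Ppat at 7.65 ± 1.32 FPKM (SD, n = 3). The strand setting of the authors' counting is not given in the sources used here, so reads of the shared bases cannot be told apart.

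Of the 4 genes that lead from inosine monophosphate to adenine and guanine nucleotides, 2 were separated higher in AAV-TKT (50%, against 11.3% of all genes). Impdh1 was at 92.7, 83.0 and 87.8 FPKM in AAV-GFP and at 102.3, 114.5 and 102.02 FPKM in AAV-TKT. The 3 AAV-TKT libraries were the 3 highest, with a mean 1.21 times as high and a log2 change of 0.27 (SE 0.0769, limma adjusted p = 0.378). Adss, adenylosuccinate synthase on the adenine side, was at 42.9, 46.4 and 36.7 FPKM and at 46.5, 48.9 and 47.7 FPKM. Its libraries were separated by a narrow gap, and the log2 change was 0.18 (limma adjusted p = 0.506). The paralog Impdh2 was at 21.5 ± 1.07 and 20.8 ± 1.12 FPKM (SD, n = 3), and Gmps, the last enzyme towards guanosine monophosphate, at 17.4 ± 1.90 and 18.1 ± 1.13 FPKM. The summed level of these 4 genes was 168.7 ± 5.53 FPKM in AAV-GFP and 192.9 ± 7.97 FPKM in AAV-TKT, without overlap, a sum in which Impdh1 weighs most.

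Salvage genes overlapped between the groups. Hprt was at 135.8, 140.7 and 117.7 FPKM in AAV-GFP and at 128.7, 160.3 and 132.3 FPKM in AAV-TKT, with a log2 change of 0.09 (SE 0.109, limma adjusted p = 0.766). AAV-TKT replicate 2 was the highest library for Hprt, as it was for 13 of the 31 genes. Aprt, which rebuilds adenosine monophosphate from adenine, had a log2 change of 0.09.

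In pyrimidine synthesis, Cad, the protein that carries the first enzymes of the ring, was at 4.29, 4.06 and 5.37 FPKM in AAV-GFP and at 7.25, 6.31 and 5.18 FPKM in AAV-TKT. The lowest AAV-TKT library fell under the highest AAV-GFP library, and the log2 change was 0.38 (SE 0.139, limma adjusted p = 0.429). Ctps, a synthase that makes cytidine triphosphate, was at 16.8, 15.9 and 15.7 FPKM and at 17.4, 19.4 and 16.9 FPKM. Its groups did not overlap, at a log2 change of 0.14 (limma adjusted p = 0.535). The other synthase, Ctps2, had the same change of 0.14 with overlapping libraries. Dhodh, the mitochondrial dehydrogenase of the ring, was at 5.21 ± 0.266 and 5.06 ± 0.589 FPKM, and Umps, which adds the ribose, at 4.71 ± 0.301 and 4.86 ± 0.566 FPKM (SD, n = 3).

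All 5 deoxynucleotide genes had a negative change in AAV-TKT, also under each of the 4 other scalings. Of all genes, 53.7% had a positive change, and 36.7% with equal totals. Libraries were separated in 2 of the 5, Rrm2 and Tyms (40% lower, against 7.20% of all genes). Rrm2 was at 2.08, 1.36 and 2.06 FPKM in AAV-GFP and at 0.516, 0.796 and 0.547 FPKM in AAV-TKT. Every AAV-TKT library was under every AAV-GFP library, the means differed 2.96-fold, and the change was -0.80 on the log2(FPKM + 1) scale, which understates changes of low genes (SE 0.162, unadjusted p = 0.00141, limma adjusted p = 0.326). Tyms was at 1.13, 1.48 and 2.26 FPKM and at 0.990, 1.05 and 0.903 FPKM, with a log2 change of -0.38 (SE 0.178, limma adjusted p = 0.490). Both genes reached the mean of 1 FPKM through the AAV-GFP libraries, so a difference in this direction was favoured by the filter.

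Rrm1, the large subunit that pairs with either small subunit, was at 4.68, 4.37 and 5.26 FPKM in AAV-GFP and at 4.82, 4.14 and 3.31 FPKM in AAV-TKT. Its groups overlapped (log2 change -0.19, limma adjusted p = 0.613). Rrm2b was at 19.6 ± 2.97 and 19.5 ± 1.45 FPKM, and Dtymk, thymidylate kinase, at 12.0 ± 1.03 and 10.9 ± 2.00 FPKM (SD, n = 3). The log2 changes of these 2 were -0.003 and -0.14, and both signs rest on the fit. With weights per library or without AAV-TKT replicate 1 both were positive, and Rrm2b was so without AAV-GFP replicate 2 as well (up to 0.11 for Rrm2b and 0.01 for Dtymk). The 5 genes summed to 39.9 ± 2.94 FPKM in AAV-GFP and 36.1 ± 2.88 FPKM in AAV-TKT (SD, n = 3), and the libraries overlapped.

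Markers of other cells differed between the same libraries. Mki67, a marker of cycling cells, was at 2.39, 0.902 and 2.33 FPKM in AAV-GFP and at 0.674, 0.411 and 0.363 FPKM in AAV-TKT. Of 15 cycling markers, 8 were measured, all 8 with a negative change (median -0.10). Only 1 of the 8, Mki67, was separated lower by itself (12.5%, against 7.20% of all genes). The summed level of the 8 was 40.7 to 44.1 FPKM in AAV-GFP against 33.0 to 39.3 FPKM in AAV-TKT. Neutrophil markers (10 of 11 measured) summed to 97.2 to 263.4 FPKM in AAV-GFP and to 19.9 to 32.4 FPKM in AAV-TKT. Macrophage markers (7 of 12) summed to 37.4 to 51.1 and 13.7 to 19.5 FPKM, red-cell markers (7 of 9) to 120.7 to 484.4 and 78.4 to 101.7 FPKM, and Schwann cell markers (9 of 10) to 492.4 to 546.7 and 446.9 to 458.8 FPKM. Satellite glia sums overlapped, at 1415 to 1692 and 1036 to 1577 FPKM, as did fibroblast sums (7 of 10), at 55.7 to 117.6 and 42.1 to 59.1 FPKM. The pan-neuronal sum was in the other direction, at 7820 to 8849 FPKM against 9291 to 10389 FPKM. Of its 13 genes 5 were separated higher and 1, Syt1, lower. Like Rrm2 and Tyms, some of these markers reached a mean of 1 FPKM through the AAV-GFP libraries: Mki67, the neutrophil genes Camp, Mmp8, Elane and Mpo, the red-cell genes Alas2 and Slc4a1, the macrophage genes C1qc, Fcer1g and Cd14, Cldn19 of Schwann cells and Lum of fibroblasts had AAV-TKT means under 1 FPKM, so the filter favours a lower value in AAV-TKT for them and for the sums they enter. No measured gene of these lists was at 0 in any library, and their part in the values of Rrm2, Tyms, Impdh1, Ak1 and Nme1 was not tested.

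Kinases of the final charging steps had positive changes in 5 of 5 genes in AAV-TKT, against 53.7% of all genes. Cmpk1, however, was negative under all 4 other scalings and Nme2 under 1. Libraries of 2 of the 5 were separated higher (40%, against 11.3% of all genes). Among 8 other nucleotide kinases tested, 6 had a positive change and 0 were separated. Ak1, an adenylate kinase that balances adenine nucleotides, was at 57.1, 56.7 and 50.1 FPKM in AAV-GFP and at 71.7, 67.4 and 64.4 FPKM in AAV-TKT. The groups did not overlap, and the log2 change was 0.31 (SE 0.0786, limma adjusted p = 0.378). Nme1 was at 75.2, 61.9 and 58.5 FPKM and at 86.2, 78.5 and 77.2 FPKM, again without overlap, with a log2 change of 0.31 (SE 0.104, limma adjusted p = 0.412). Guk1, the guanylate kinase, had a change of 0.16, Nme2, the neighbouring diphosphate kinase, 0.06, and Cmpk1, the kinase of uridine and cytidine monophosphate, 0.02. The 5 genes summed to 267.2 ± 21.4 FPKM in AAV-GFP and 302.9 ± 9.94 FPKM in AAV-TKT (SD, n = 3), without overlap. Like the other sums given here, this one used FPKM as deposited, without equal totals. How often sums of other genes are separated was not computed.

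Of the 4 folate genes tested, 2 had a positive change (50%, against 53.7% of all genes) and 2 a negative change. Both positive changes, of Mthfd2 and Mthfd1l, were near 0.01 and turned negative under 3 of 4 other scalings. Shmt2, the mitochondrial hydroxymethyltransferase, was at 10.4, 7.55 and 7.70 FPKM in AAV-GFP and at 8.25, 8.35 and 7.71 FPKM in AAV-TKT. Mthfd2, the mitochondrial methylene-tetrahydrofolate dehydrogenase, was at 14.3, 14.1 and 12.1 FPKM and at 12.9, 15.0 and 13.0 FPKM. Both overlapped. Mthfd1, the cytosolic enzyme of 3 activities that makes the formyl donor of the purine ring, was at 9.20, 8.78 and 8.67 FPKM and at 8.37, 8.34 and 8.25 FPKM. Its libraries were separated at a log2 change of only -0.08 (SE 0.0708, limma adjusted p = 0.665), since it had the smallest spread within groups of the 31 genes (SD 0.029 on the log2 scale). Mthfd1l, its mitochondrial relative, had a change of 0.01.

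**Figure D2:**
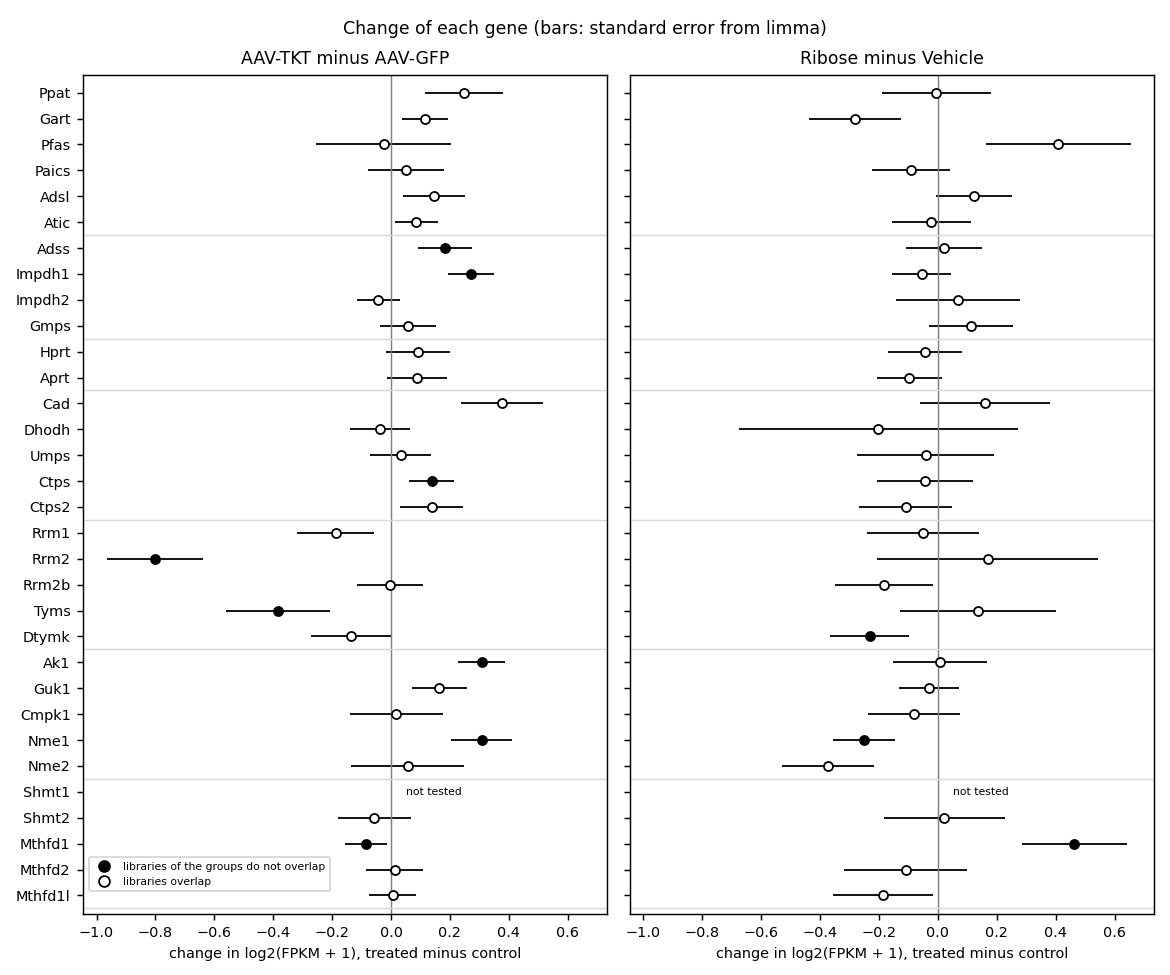
Change in log2(FPKM + 1) of each gene in AAV-TKT against AAV-GFP (left) and in Ribose against Vehicle (right), with the standard error from limma as bars. Filled points are genes whose libraries do not overlap between the groups, 8 on the left and 3 on the right. Rrm2 at -0.80 is the lowest on the left and Mthfd1 at 0.46 the highest on the right.

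Ribose was compared with Vehicle to ask the same question where the sugar itself was given. None of the 31 genes passed, and over all 13804 genes the test called 1 higher and 0 lower (0.00724% and 0.00%). The smallest adjusted p of the 31 genes was 0.9998. At an unadjusted p under 0.05, 1 gene was higher, Mthfd1 (3.23% against 2.80% of all genes), and 2 were lower, Nme1 and Nme2 (6.45% against 1.99%). Libraries did not overlap in 3 genes (9.68% against 9.63%), 1 of them higher in Ribose (3.23% against 4.28%) and 2 lower (6.45% against 5.35%). The log2 change was positive in 11 of 31 genes (35.5% against 44.8%), with a median of -0.044 against -0.023 for all genes. With quantile normalization 14 of the 31 were positive (46.6% of all genes), with medians of -0.012 and -0.015. With totals equal after leaving out the most abundant RNA 14 were positive (53.4% of all genes), with medians of -0.004 and 0.016.

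Among purine genes none was separated. Ppat was at 9.09, 7.99 and 7.71 FPKM in Vehicle and at 7.71, 6.93 and 10.3 FPKM in Ribose. Gart had a log2 change of -0.28 and Pfas of 0.41 (SE 0.155 and 0.246), the largest of this branch in each direction, both with an overlap of libraries. Hprt was at 116.5, 150.7 and 143.3 FPKM and at 133.8, 141.3 and 121.2 FPKM. Impdh1, separated in the AAV experiment, was at 101.5, 95.1 and 107.2 FPKM in Vehicle and at 93.2, 94.3 and 104.7 FPKM in Ribose, where the groups overlapped (log2 change -0.05). The other 7 purine genes had changes between -0.10 (Aprt) and 0.12 (Adsl).

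Pyrimidine genes overlapped too, with changes of -0.04, -0.04 and -0.11 for Umps, Ctps and Ctps2. Cad was at 4.01, 5.06 and 5.56 FPKM in Vehicle and at 7.24, 4.64 and 4.99 FPKM in Ribose. Dhodh had the widest spread of the 31 genes (SD 0.739 within groups on the log2 scale), at 5.01, 5.53 and 6.91 FPKM and at 2.44, 3.50 and 12.2 FPKM. Its high value was in Ribose replicate 3, which was the highest library for 7 of the 31 genes, among them Rrm2, Impdh2, Shmt2 and Mthfd1. Vehicle replicate 3 was the highest for 7 others.

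The deoxynucleotide genes showed no shared direction under ribose. Rrm2 was at 1.40, 1.81 and 1.49 FPKM in Vehicle and at 1.49, 0.948 and 3.92 FPKM in Ribose. Its log2 change of 0.17 (SE 0.375) became -0.22 without Ribose replicate 3. Tyms was at 1.66, 0.877 and 1.19 FPKM and at 1.34, 1.53 and 1.44 FPKM, and Rrm1 at 4.12, 5.24 and 4.23 FPKM and at 4.67, 3.76 and 4.58 FPKM. All 3 overlapped, as did Rrm2b (log2 change -0.18). Dtymk, which charges thymidine monophosphate, was at 14.0, 12.7 and 13.7 FPKM in Vehicle and at 12.1, 10.5 and 11.5 FPKM in Ribose. It was the only separated gene of this step, with a log2 change of -0.23 (SE 0.134, limma adjusted p = 0.9998). The 5 genes summed to 39.5 ± 1.55 FPKM in Vehicle and 35.7 ± 1.34 FPKM in Ribose (SD, n = 3), without overlap, a sum in which Rrm2b and Dtymk weigh most.

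Both diphosphate kinases were lower under ribose at an unadjusted p just under 0.05 (0.0470 for Nme1 and 0.0478 for Nme2, limma). Neither stayed under it with equal totals, with totals equal after leaving out the most abundant RNA, with quantile normalization, or without Vehicle replicate 3 or Ribose replicate 1. Nme1 also passed above it without Vehicle replicate 1 or Ribose replicate 2, and Nme2 without Vehicle replicate 2 or Ribose replicate 3. Nme1 was at 90.5, 80.6 and 87.7 FPKM in Vehicle and at 66.4, 73.5 and 77.4 FPKM in Ribose, without overlap (log2 change -0.25, SE 0.105, limma adjusted p = 0.9998). Nme2 was at 56.7, 64.6 and 68.7 FPKM and at 40.8, 59.3 and 47.2 FPKM, with a log2 change of -0.37 (SE 0.157), and here 1 Ribose library exceeded the lowest Vehicle library. The other kinases overlapped, with changes of 0.01 for Ak1, -0.03 for Guk1 and -0.08 for Cmpk1. The 5 kinases summed to 332.3 ± 11.1 FPKM in Vehicle and 300.03 ± 16.8 FPKM in Ribose (SD, n = 3), without overlap. The genes adjoin on chromosome 11 of GRCm38, on the minus strand, Nme2 from 93949814 to 93956259 and Nme1 from 93956979 to 93968521. A read-through gene, Gm20390, covers 11315 bases of Nme1 and 6441 of Nme2 on the same strand, so the split of reads between the 3 genes is uncertain. The sum of the 3 was 168.1 ± 9.58 FPKM in Vehicle and 137.4 ± 16.9 FPKM in Ribose, and 118.8 ± 14.1 FPKM in AAV-GFP and 137.6 ± 1.83 FPKM in AAV-TKT (SD, n = 3). Libraries of this sum were separated in both experiments, in opposite directions, but without Gm20390 the AAV libraries overlapped: Nme1 and Nme2 together were at 113.9, 87.3 and 94.1 FPKM in AAV-GFP and at 112.9, 118.2 and 114.4 FPKM in AAV-TKT. In the ribose experiment the sum of these 2 was 149.6 ± 5.97 FPKM in Vehicle and 121.6 ± 13.1 FPKM in Ribose (SD, n = 3), without overlap.

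Of the 31 genes tested, Mthfd1 had the largest change under ribose. It was at 7.92, 7.79 and 9.48 FPKM in Vehicle and at 11.1, 10.4 and 14.7 FPKM in Ribose. Every Ribose library lay above every Vehicle library, and the mean was 1.43 times as high (log2 change 0.46, SE 0.179, limma adjusted p = 0.9998). Without Ribose replicate 3 the log2 change was 0.32. Its unadjusted p of 0.0344 (limma) passed above 0.05 without that library and without Vehicle replicate 1 or 2. The libraries of the mitochondrial folate genes overlapped. Mthfd2 was at 15.4, 12.6 and 19.0 FPKM and at 14.2, 11.5 and 17.7 FPKM. Shmt2 was at 12.4, 9.75 and 8.17 FPKM and at 9.09, 9.12 and 12.6 FPKM, and Mthfd1l had a change of -0.19.

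Beside these values, Schwann cell markers (10 of 10 measured) summed to 543.7 to 596.4 FPKM in Vehicle and to 463.5 to 497.3 FPKM in Ribose. These sums did not overlap, although none of the 9 Schwann cell genes tested was separated by itself (0 of 9). Pan-neuronal sums overlapped, at 8404 to 9666 and 8231 to 8900 FPKM, as did satellite glia (1076 to 2027 and 637.4 to 1382 FPKM), neutrophil (29.9 to 170.5 and 13.1 to 120.2 FPKM), fibroblast (9 of 10, 57.1 to 72.5 and 26.4 to 123.9 FPKM), macrophage (16.2 to 38.6 and 6.02 to 38.2 FPKM) and cycling cell sums (46.0 to 58.9 and 44.1 to 51.8 FPKM). Ribose replicate 2 was the lowest of the 6 libraries for the satellite glia, Schwann cell, fibroblast, macrophage and neutrophil sums. Without it the log2 change was -0.26 for Nme1, -0.52 for Nme2 and 0.56 for Mthfd1. Of these lists, the markers at 0 in some libraries were Retnlg of neutrophils, Aif1, Csf1r, Cd68, C1qa, Adgre1 and Fcer1g of macrophages, and Cdk1, Ccnb1 and Ccnb2 of cycling cells. Depth was lower in every Ribose library than in every Vehicle library, and genes listed at 0 made up 5.76% to 11.0% of the table in Vehicle and 11.5% to 14.5% in Ribose. Their part in the values of Nme1, Nme2, Dtymk and Mthfd1 was not tested.

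**Figure D3:**
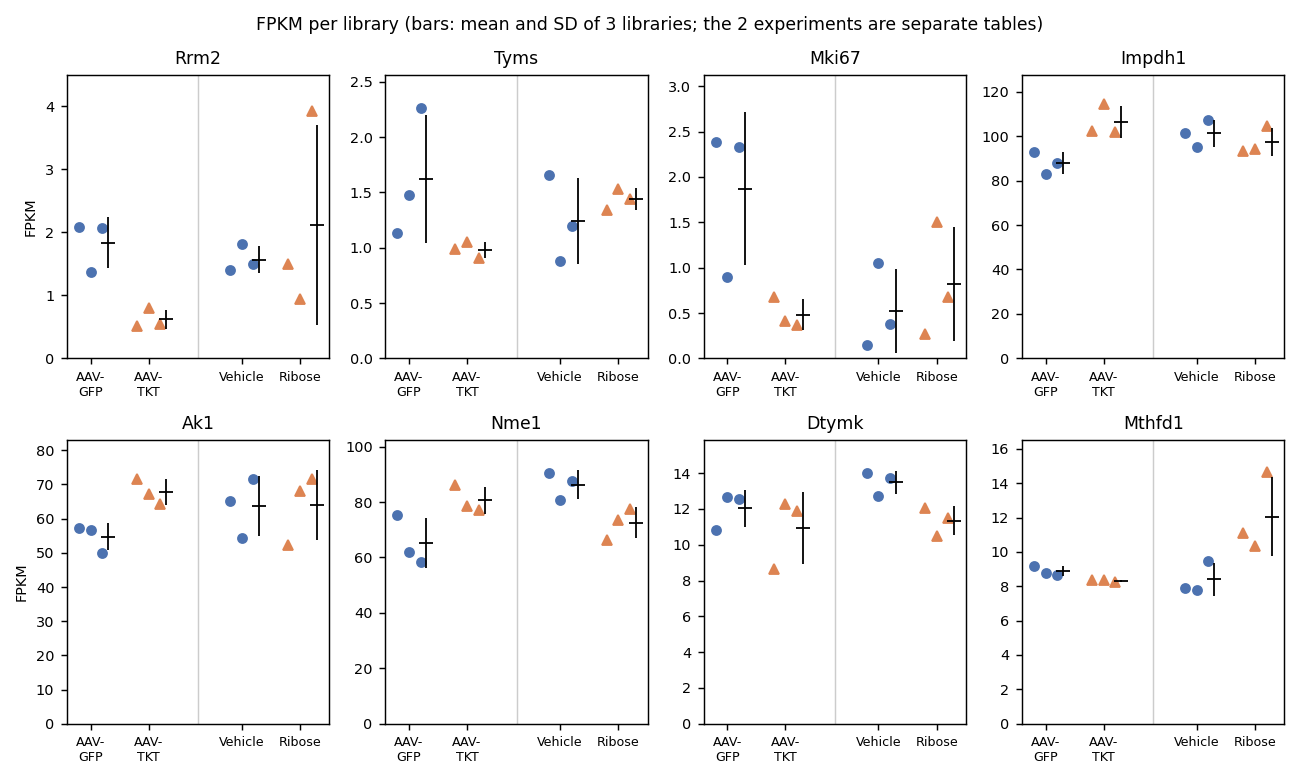
FPKM of 7 of the genes and of the cycling cell marker Mki67 in every library, with AAV-GFP, AAV-TKT, Vehicle and Ribose on the horizontal axis. Bars give the mean and SD of 3 libraries, and each vertical axis starts at 0. AAV-TKT sits below AAV-GFP for Rrm2, Tyms and Mki67 and above it for Impdh1, Ak1 and Nme1, while Ribose sits below Vehicle for Nme1 and Dtymk and above it for Mthfd1.

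The effects of the 2 treatments were compared in 1 limma fit over all 12 libraries and the 12853 genes tested in both tables. None of the 31 genes differed between the treatments after adjustment (background 0.00778% higher and 0.00% lower, Tkt being the call). At an unadjusted p under 0.05, 3 were higher in the AAV effect than in the ribose effect, Impdh1, Gart and Nme1 (9.68% against 4.22%), and 2 were lower, Rrm2 and Mthfd1 (6.45% against 2.62%). Nme1 had the smallest p of these, with a difference of 0.56 (SE 0.147, limma adjusted p = 0.560). The difference was -0.55 for Mthfd1 (limma adjusted p = 0.669), 0.33 for Impdh1 (0.687), 0.40 for Gart (0.702) and -0.97 for Rrm2 (0.702). Rrm2 is in the AAV table through AAV-GFP, so the filter favoured a lower AAV effect and a negative difference for it. With a library left out the difference of Rrm2 ran from -1.25 to -0.58. The sign of the change was the same in both experiments for 9 of the 31 genes, positive in AAV-TKT and negative in Ribose for 16, and the reverse for 6. The shares of all genes with these pairs of signs were not computed, so the counts are not read as particular to these genes. Of all genes, 53.7% had a positive change in AAV-TKT and 44.8% in Ribose, and signs in each experiment moved with scaling. The difference was positive in 23 of the 31 genes (74.2% against 58.6%), with a median of 0.14 against 0.053 for all genes. These counts depended on scaling. With equal totals 1 of the 31 was higher and 2 lower at an unadjusted p under 0.05 (228 and 472 of all 12853 genes). Leaving out the most abundant RNA as well gave 1 and 2 (229 and 532), and quantile normalization 1 and 1 (431 and 269). Positive differences were 22 with equal totals (45.7% of all genes) and 21 with that RNA left out (44.3%). The groups share 1 estimate of the spread, and libraries correlated less in the ribose experiment.

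Ratios of related genes within a library do not depend on how the library was scaled, and 6 pairs were compared in each experiment with a two-sided exact permutation test, whose smallest possible p for 3 against 3 libraries is 0.1. In AAV-TKT the ratio of Impdh2 to Impdh1, the 2 forms of inosine monophosphate dehydrogenase, was 0.196 against 0.244 in AAV-GFP (geometric means), with separated libraries (exact p = 0.1, adjusted 0.2). The ratio of the small subunits Rrm2b to Rrm2 was 8.77, 16.9 and 8.50 in AAV-GFP and 34.6, 25.0 and 37.8 in AAV-TKT, and that of Rrm1 to Rrm2 was 2.25, 3.20 and 2.55 and then 9.33, 5.20 and 6.05. Both were separated at the same p (exact p = 0.1, adjusted 0.2). They share Rrm2 and are not independent. Rrm2 is in the AAV table through AAV-GFP, so the filter favoured higher values of both ratios in AAV-TKT. The pairs were chosen with earlier results of these data known, so the p-values describe these ratios only. In Ribose only the ratio of Mthfd2 to Mthfd1, the mitochondrial to the cytosolic enzyme, was separated, at 1.95, 1.62 and 2.01 in Vehicle and 1.28, 1.11 and 1.21 in Ribose (exact p = 0.1, adjusted 0.6). In the AAV experiment this ratio overlapped, at 1.51 and 1.63 (geometric means). Ratios of Ctps2 to Ctps and of Nme1 to Nme2 overlapped in both experiments.

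**Figure D4:**
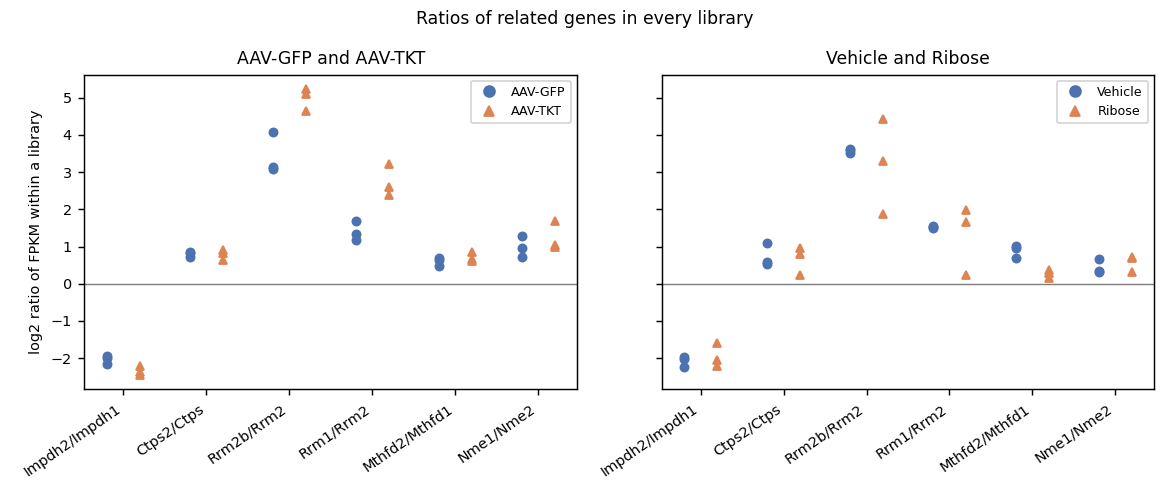
Log2 ratio of FPKM within each library for 6 pairs of related genes, AAV-GFP and AAV-TKT on the left and Vehicle and Ribose on the right. Points of the groups are apart for Impdh2/Impdh1, Rrm2b/Rrm2 and Rrm1/Rrm2 on the left and for Mthfd2/Mthfd1 on the right.

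Other genes of nucleotide and folate metabolism, 68 in all, were taken from a list of 5 groups: synthesis of activated ribose, other purine salvage, other pyrimidine salvage and breakdown, other nucleotide kinases, and the rest of the folate cycle with its transport and serine supply. In AAV-TKT 56 were tested and 0 passed, with 33 positive and 23 negative changes and a median of 0.016. Positive changes were 58.9%, against 53.7% of all genes. At an unadjusted p under 0.05, 2 were higher (3.57%, against 6.23% of all genes) and 2 lower (3.57% against 4.36%), and 0 were separated higher and 4 lower (7.14% against 7.20%). The 3 with the smallest p were Fpgs, which traps folates in the cell (log2 change -0.29, limma adjusted p = 0.412), Dpyd, the first enzyme of pyrimidine breakdown (0.41, limma adjusted p = 0.412), and Samhd1, which hydrolyses deoxynucleotide triphosphates (-0.29, limma adjusted p = 0.425). The 4 genes of activated ribose synthesis, the synthetases Prps1 and Prps2 and their associated proteins Prpsap1 and Prpsap2, had changes from 0.01 to 0.13. Under ribose 60 were tested and 0 passed, with 21 positive and 39 negative changes and a median of -0.072, and at an unadjusted p under 0.05 there were 0 in either direction (against 2.80% higher and 1.99% lower). Of all genes 44.8% had a positive change. Of the 60 genes, 0 were separated higher and 4 lower (6.67% against 5.35%). The smallest p belonged to Amt, the aminomethyltransferase of glycine cleavage (-0.65), the mitochondrial thymidine kinase Tk2 (-0.28) and Nme7 of the diphosphate kinase family (0.39). Amt, among the 4 separated lower, was at a mean of 1.47 FPKM in Vehicle and 0.610 FPKM in Ribose. It reached the mean of 1 FPKM through the Vehicle libraries, so the filter favoured a lower value in Ribose. The same 4 genes of activated ribose synthesis had changes from -0.11 to -0.005.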

How the data were processed

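The authors deposited FPKM in 1 table per experiment. Per the labels' protocols, the library kit was directional. Per the submitters' processing notes, bcl2fastq 2.20, FastQC and Trim Galore were used with GRCm38. The sources used here name no aligner, counter or strand setting. By identifier, 13170 of 13178 and 21612 of 21650 genes had a GENCODE M21 symbol. All genes of the AAV table had a mean of at least 1 FPKM (lowest 1.00041), and the same minimum was set for the ribose table, which left 13804 genes.

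Groups were compared within each table with limma 3.58.1 in R 4.3.3 on log2(FPKM + 1), with a trended prior and Benjamini-Hochberg adjustment over all genes tested at 0.05. Control columns of the ribose table, named otherwise, were taken as Vehicle, the only control group there. The fit was tested on simulated data. Ratios of related genes used FPKM without a pseudocount, with Benjamini-Hochberg adjustment over the 6 pairs of an experiment.

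The genes and lists were chosen with earlier results of these data known. Values in every library were given for genes whose groups did not overlap or whose unadjusted p was under 0.05, and for Ppat, Hprt, Cad, Rrm1, Rrm2, Tyms, Shmt2 and Mthfd2. Of the other pathway genes, those past the threshold or, with none, the 3 of smallest p were named, and the activated ribose genes were added after their values were seen. So were the marker Mki67, and Dhodh and Impdh1 in the ribose libraries. Alternatives tried were 2 smaller pseudocounts (0.1 and 0.5), dropping the filter or raising it to 5 FPKM, 4 scalings, weights per library, a replicate block, and leaving out each library. Precision is limited by 3 libraries a group.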

Additional observations from a re-analysis of the deposited data

How the results depend on the processing

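None of the 31 genes passed in any alternative of either comparison or of their difference. The smallest adjusted p was 0.0613 (limma), for Rrm2 in AAV-TKT with weights per library. Rrm2 is in the AAV table through AAV-GFP, so the filter favoured a lower value for it in AAV-TKT. The count over all genes did move. In AAV-TKT it was 2, and became 5 with a pseudocount of 0.1, 4 with a mean of at least 5 FPKM, 4 with equal totals (1 higher and 3 lower, against 1 and 1), 23 with weights per library and 0 with the replicate number as a block. Leaving out 1 library gave 3 to 41 calls, 41 without AAV-GFP replicate 2, 5 without AAV-TKT replicate 2, 4 without AAV-GFP replicate 3, and 3 without any of the others. In Ribose it was 1, and became 2 with a pseudocount of 0.5 or equal totals and 1 to 4 with a library left out (2 without Vehicle replicate 2 or 3, 4 without Ribose replicate 2, 3 without Ribose replicate 3). For the difference it was 1, and became 2 with a pseudocount of 0.1 and 1 to 3 with a library left out (3 without Vehicle replicate 3 or Ribose replicate 2, 2 without Ribose replicate 3). The cause of these shifts was not tested. The median of the 31 genes in AAV-TKT, 0.056, was -0.012 with equal totals, where the median of all genes was -0.048, and 0.022 to 0.085 with a library left out (0.022 without AAV-TKT replicate 2). Their median difference, 0.14, was 0.055 with equal totals and 0.046 with totals equal after leaving out the most abundant RNA. With 1 added to each FPKM the log2 ratio difference in AAV-TKT was 0.80 for Rrm2b to Rrm2 (1.57 without it) and 0.61 for Rrm1 to Rrm2 (1.33), since adding 1 shrinks ratios of low genes. Of 1660 single-gene values under alternatives, 1652 stayed within the spread between replicates and 8 moved, among them Rrm2 in AAV-TKT, at -1.42 with a pseudocount of 0.1. The filter settings and the replicate block cannot change a log2 change. Their values among the 1660 are therefore the same by construction, and the count overstates how much was put to a test. The replicate block, fitted because the labels number the libraries alike, changed no call of the 31 genes. Deviations of same-numbered libraries correlated at 0.033, 0.071 and -0.014 in the AAV table and at 0.042, 0.357 and 0.160 in the ribose table. Those of differently numbered libraries correlated at -0.104 to 0.080 and at -0.260 to 0.145. The main fit did not treat the numbers as pairs, and the ribose values do not settle whether they are. With the block, 490 of all genes were higher and 503 lower in Ribose at an unadjusted p under 0.05 (limma), against 386 and 275. The smallest adjusted p of the 31 genes there was 0.611 (limma). Depth is unknown in the AAV table, and values near 1 FPKM, as for Rrm2 and Tyms, carry counting error that cannot be stated.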
